A study of Mus musculus with 2 samples.

Results

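The miR-30 family is a set of related miRNA genes, and its 7 mouse genes Mir30a, Mir30b, Mir30c-1, Mir30c-2, Mir30d, Mir30e and Mir30f were taken by their GENCODE M21 symbols from a table of 2202 miRNA genes. The data are microRNA-seq counts from 2 female mice of the strain B6CASTF1/J, aged 2 months, whose left cerebral cortex was taken. The strain is a cross of a C57BL strain with the wild-derived CAST strain. Each animal gave 1 library of RNA shorter than 30 nucleotides, and both libraries form a single group, so no treatment, genotype, age or sex was compared. The labels name the animals separately, as Female 03 (biological replicate 1, here animal 1) and Female 04 (replicate 2, here animal 2), but give both the same donor identifier. A difference between the animals cannot be told apart from one between 2 library preparations, and it carries no p-value. Bulk tissue also cannot tell fewer cells of a type from less RNA per cell.

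A miRNA gene is transcribed as a longer RNA whose hairpin is cut by Drosha and then Dicer. One arm, called 5p or 3p after its side of the hairpin, is loaded into an Argonaute protein and guides it to messenger RNAs. Pairing rests mainly on the seed, bases 2 to 8 of the mature miRNA, so miRNAs with 1 seed are grouped as a family with overlapping targets. The miR-30 family is known from many tissues, kidney and heart among them. In human cells miR-30a represses BECN1, a gene of autophagy, and in human prefrontal cortex it has been tied to BDNF, a growth factor of neurons.

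Mature sequences were found in the RefSeq table (build GRCm38.p6) for 5 of the 7 genes, and Mir30b and Mir30d are named only. The 5p arms are shown first because they carry the family seed, in capitals, and because they differ in how far one gene's reads can be told from another's. The last line is miR-30f, which is not named as a 5p arm and has another seed at its capitals. All are written 5′ to 3′.
miR-30a-5p: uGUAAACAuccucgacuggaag
miR-30e-5p: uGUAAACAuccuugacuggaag
miR-30c-5p: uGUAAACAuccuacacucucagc
miR-384-5p: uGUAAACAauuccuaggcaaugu
miR-30f: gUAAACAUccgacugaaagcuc

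Among 1738 mature entries of that table, the seed GUAAACA was held by 4 distinct miRNAs from 5 genes, namely Mir30a, Mir30c-1, Mir30c-2, Mir30e and the X-linked Mir384, which has another number in its name. With positions counted from 1 at the 5′ end, miR-30a-5p and miR-30e-5p differed by the single substitution C13U. miR-30a-5p shared its first 12 bases with miR-30c-5p and its first 8 with miR-384-5p. Mir30f, in capitals at its own bases 2 to 8, has the seed UAAACAU, which no other entry of the table held. Its first 10 bases equal those of miR-30a-5p from base 2 on, so these miR-30 letters are in it but begin 1 base earlier in the RNA.

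Mir30c-1 and Mir30c-2 encode the same 5p miRNA. Their 3p arms differ, and these and the rest of the hairpins are where reads of one copy could be told from the other. The hairpins are shown with both mature arms in capitals.
Mir30c-1: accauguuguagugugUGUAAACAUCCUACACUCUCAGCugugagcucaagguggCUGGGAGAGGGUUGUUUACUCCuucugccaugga
Mir30c-2: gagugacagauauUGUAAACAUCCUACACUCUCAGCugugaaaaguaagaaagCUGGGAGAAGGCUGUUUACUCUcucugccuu

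The longest stretch common to both hairpins was 28 bases, which covers the whole 23-base 5p arm. Between the 3p arms of Mir30c-1 and Mir30c-2 there were 3 substitutions, G9A, U12C and C22U. The hairpins of Mir30a and Mir30e, the other closely related set, shared at most 18 bases in a row.
Mir30a: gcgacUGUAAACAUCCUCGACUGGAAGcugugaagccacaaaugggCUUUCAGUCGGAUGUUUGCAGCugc
Mir30e: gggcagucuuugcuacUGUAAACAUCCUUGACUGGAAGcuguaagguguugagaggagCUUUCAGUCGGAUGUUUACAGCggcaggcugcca

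The 3p arms of Mir30a and Mir30e have a common seed, UUUCAGU, and differ by G18A. Those of Mir30c-1 and Mir30c-2 have the seed UGGGAGA, also found in miR-6958-5p. Among the entries of the table, both mature arms of Mir30a and of Mir30e belonged to 1 gene each, while miR-30c-5p belonged to both Mir30c-1 and Mir30c-2. The tables count reads per gene and do not separate the arms.

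Mir30d was the most abundant of the genes, followed by Mir30a and Mir30e, and these 3 held nearly all of the family's counts. Levels are given in CPM, a gene's counts per 1000000 counts at miRNA genes, and these totalled 4415759 in animal 1 and 2279562 in animal 2. Mir30d had 36919 counts in animal 1 and 19097 in animal 2, or 8361 and 8378 CPM, with a mean of 8369 ± 11.8 CPM (SD, n = 2). Mir30a had 18959 and 9250 counts, or 4293 and 4058 CPM, with a mean of 4176 ± 167 CPM. Mir30e had 9762 and 4412 counts, or 2211 and 1935 CPM, with a mean of 2073 ± 195 CPM.

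The other 4 genes had low counts or none. Mir30c-2 had 1312 and 588 counts (297 and 258 CPM) and Mir30c-1 had 608 and 276 counts (138 and 121 CPM). Mir30b, the neighbour of Mir30d, had 446 and 292 counts, or 101 and 128 CPM, so it was lower in animal 1 than in animal 2. Mir30f had 0 counts on its strand in both animals, and 0 counts allow a level of up to 3 counts, which was 0.679 CPM in the library of animal 1 and 1.32 CPM in the other. Such limits and the intervals below cover counting error only, because amplified reads that carry no molecular identifier may be copies of 1 molecule.

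**Figure D1:**
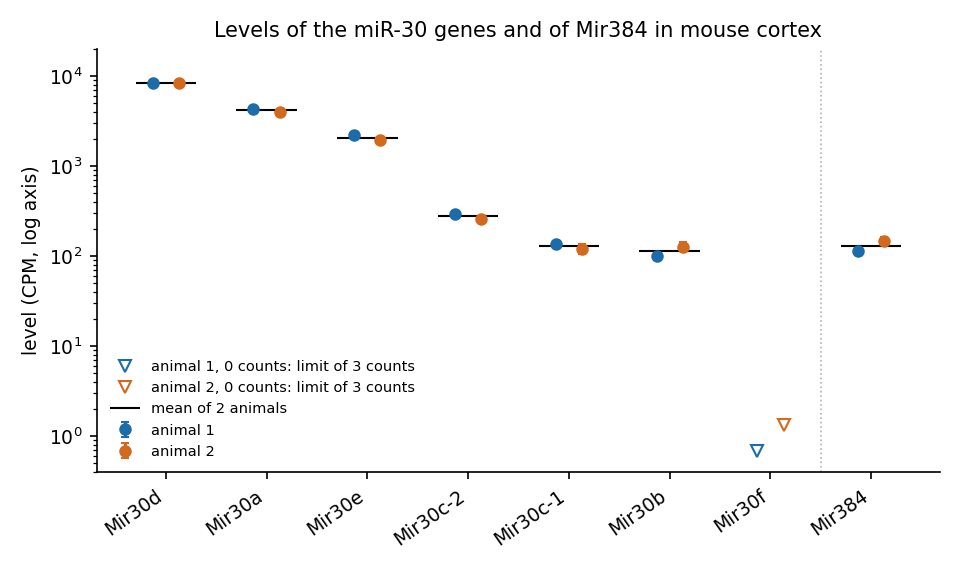
Level of each miR-30 gene and of the seed relative Mir384 in CPM on a log axis, with 1 point per animal, its exact 95% counting interval as a bar and the mean of the 2 animals as a line. Mir30d, Mir30a and Mir30e lie at 1935 CPM or above in both animals, and open triangles give the limit of 3 counts at Mir30f, which had 0.

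In order of mean level the genes ran Mir30d, Mir30a, Mir30e, Mir30c-2, Mir30c-1, Mir30b and Mir30f. Steps between neighbours were alike in both animals at the top of this order. Mir30d exceeded Mir30a 1.95-fold in animal 1 and 2.06-fold in animal 2, and Mir30a exceeded Mir30e 1.94-fold and 2.10-fold. The gap from Mir30e to Mir30c-2 was 7.44-fold and 7.50-fold. Mir30c-2 was 2.16-fold and 2.13-fold above Mir30c-1. In these 4 steps the higher gene's lower library lay above the lower gene's higher one. Mir30c-1 and Mir30b overlapped and changed places, since Mir30c-1 was 1.36-fold higher in animal 1 and 0.945-fold as high in animal 2. A read in such a library is a whole small RNA, so counts do not scale with gene length, and dividing the mean CPM by the hairpin length of 71 to 96 bases left the order as it was, from 102 CPM per base for Mir30d to 1.19 for Mir30b.

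Detection was set at 2 CPM or more in both libraries. By it 6 of the 7 genes were detected, against 18.8% of all miRNA genes. Mir30d ranked 23 of 2202 by mean level, Mir30a 43, Mir30e 62, Mir30c-2 153, Mir30c-1 186 and Mir30b 191. The median over all 7 genes was 278 CPM, that over all 2202 genes was 0, and the median of the 415 detected genes was 87.0 CPM.

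**Figure D2:**
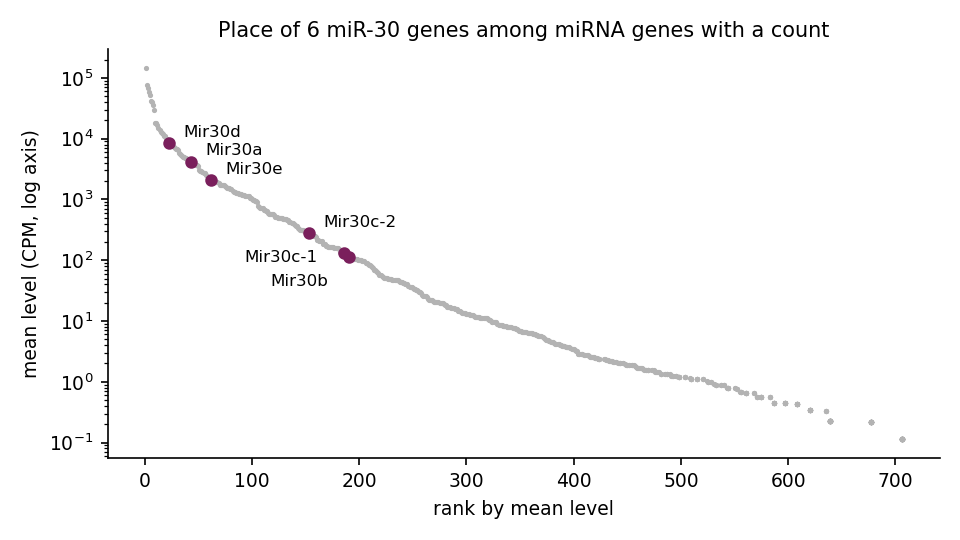
Mean level of every miRNA gene with a count in either animal, in CPM on a log axis, against its rank, with the 6 detected miR-30 genes as large points. Mir30d, Mir30a and Mir30e fall within the first 62 ranks, and Mir30c-2, Mir30c-1 and Mir30b between ranks 153 and 191.

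Together the 7 genes held 68006 counts in animal 1, 1.540% of counts at miRNA genes with an exact (Clopper-Pearson) 95% interval from 1.529% to 1.552%. In animal 2 they held 33915 counts, or 1.488%, with an interval from 1.472% to 1.504%. The mean share was 1.51% ± 0.0370 (SD, n = 2). Mir30d alone held 54.3% and 56.3% of the family's counts, Mir30a 27.9% and 27.3%, and Mir30e 14.4% and 13.01%. Mir30c-1 and Mir30c-2 together held 2.82% and 2.55%.

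The genes lie in 3 clusters on 3 chromosomes, each with 1 abundant gene and 1 scarce one on the same strand. Positions are on mm10 with GENCODE M21. On chromosome 15, minus strand, Mir30d (ENSMUSG00000065437.1, 68341208 to 68341289) and Mir30b (ENSMUSG00000065476.2, 68337415 to 68337510) are 3697 bases apart. Mir30d overlaps exons of the long noncoding Gm20732 and of Gm37296, and Mir30b overlaps an exon of the processed transcript gene Gm26621. On chromosome 1, plus strand, Mir30a (ENSMUSG00000065405.3, 23272269 to 23272339) lies 19361 bases from Mir30c-2 (ENSMUSG00000065567.1, 23291701 to 23291784). Mir30a overlaps no other annotated gene, and Mir30c-2 overlaps an exon of the long noncoding Gm27028. The last cluster is in an intron of Nfyc on chromosome 4, minus strand, whose protein is a subunit of the CCAAT-binding factor NF-Y. It holds Mir30e (ENSMUSG00000065409.1, 120772606 to 120772697) and, 2983 bases away, Mir30c-1 (ENSMUSG00000065490.1, 120769534 to 120769622). Mir30f (ENSMUSG00000105585.1) has the same start and end as Mir30e on the opposite strand. Host transcripts were not measured.

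By cluster, the chromosome 15 genes held 54.9% of the family's counts in animal 1 and 57.2% in animal 2. The chromosome 1 genes held 29.8% and 29.01%. Those of chromosome 4 held 15.2% and 13.8%. The order of the clusters was the same in both animals, and the SD of a cluster's share over the animals was at most 1.57 percentage points.

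Within a library, the ratio of 2 neighbours needs no scaling between libraries. Mir30e exceeded Mir30c-1 16.1-fold in animal 1 (9762 against 608 counts) and 16.0-fold in animal 2 (4412 against 276), a log2 ratio of 4.01 and 4.00. The difference of 0.01 between animals had an exact counting interval of -0.21 to 0.22. Mir30a exceeded Mir30c-2 14.5-fold and 15.7-fold, with log2 ratios of 3.85 and 3.98, and the interval of their difference (-0.27 to 0.02) also included 0. Mir30d exceeded Mir30b by more, 82.8-fold in animal 1 and 65.4-fold in animal 2. Its log2 ratios of 6.37 and 6.03 differed by 0.34 (0.12 to 0.56), beyond counting error. These folds describe counted reads, and for Mir30c-1 and Mir30c-2 they rest on counts that may leave out reads of the common 5p arm.

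**Figure D3:**
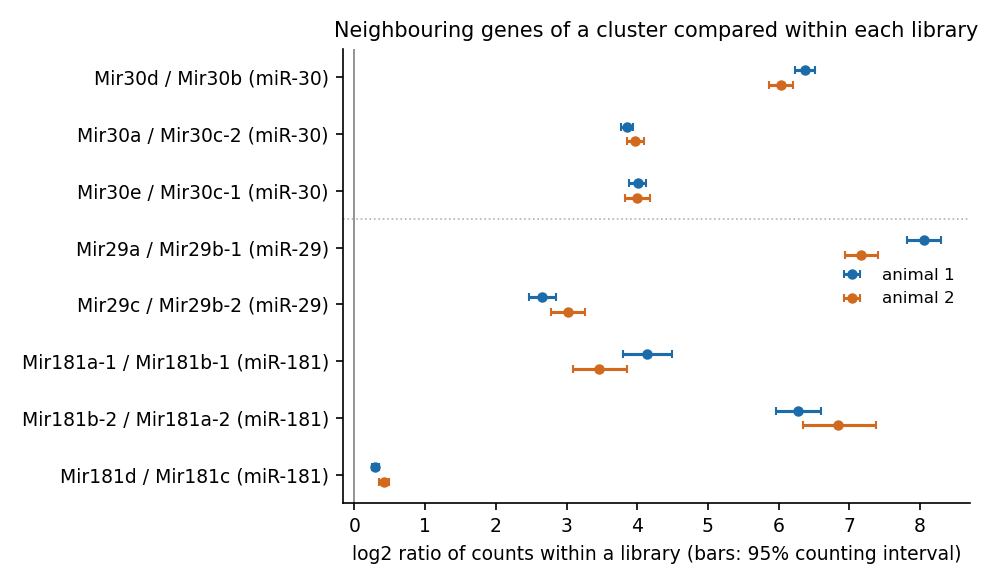
Log2 ratio of the counts of 2 neighbouring genes within each library, 1 point per animal with its exact 95% counting interval, for the 3 miR-30 clusters and, below the dotted line, 5 clusters of the miR-29 and miR-181 families. The miR-30 ratios lie between 3.85 and 6.37 in both animals.

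Between the animals, the log2 ratios of the 6 detected miR-30 genes, animal 1 over animal 2, ran from -0.34 to 0.20. A gene was called outside counting error when the exact 95% interval of animal 1's share of its 2 counts left out the share given by the library totals. By this rule 4 of 6 detected genes were outside, against 56.6% of the 415 detected genes. Mir30a, Mir30e and Mir30c-2 (3 of 6) were higher in animal 1, as were 27.0% of detected genes, and Mir30b (1 of 6) was higher in animal 2, as were 29.6%. The share outside differed with level. It was 90 of 100 detected genes at 1000 CPM or more, where Mir30d, Mir30a and Mir30e lay and 2 of the 3 were outside. It was 80 of 100 between 100 and 1000 CPM, where Mir30c-2, Mir30c-1 and Mir30b lay and 2 of the 3 were outside, and 65 of 215 under 100 CPM. The count of 4 is therefore not read as a result about the family. By size, none of the 6 had an absolute log2 ratio over 0.5, a bound that 35.4% of detected genes passed. The median absolute log2 ratio was 0.19 for the 6 genes and 0.34 for all detected genes. Neither comparison of size is matched for level, since all 6 genes had a mean above 100 CPM and 215 of the 415 did not. No test between animals is possible with 1 library each.

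The log2 ratio of animal 1 over animal 2 was highest for Mir30c-2, at 0.20 (counting interval 0.06 to 0.35), Mir30e, at 0.19 (0.14 to 0.24), and Mir30c-1, at 0.19 (-0.02 to 0.40). Mir30a followed at 0.08 (0.05 to 0.12). Mir30d, the most abundant gene, stayed inside counting error at -0.003 (-0.03 to 0.02). Mir30b stood on the other side at -0.34 (-0.56 to -0.12), which is 1.27-fold higher in animal 2. The 2 genes of the chromosome 4 cluster had nearly the same ratio, while those of the chromosome 15 cluster did not. With TMM scaling the call of Mir30c-1 changed, and with the most abundant miRNA gene left out of the total those of Mir30c-1 and Mir30d did, all to higher in animal 1. Thinned to the depth of animal 2, Mir30c-2 was inside counting error.

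**Figure D4:**
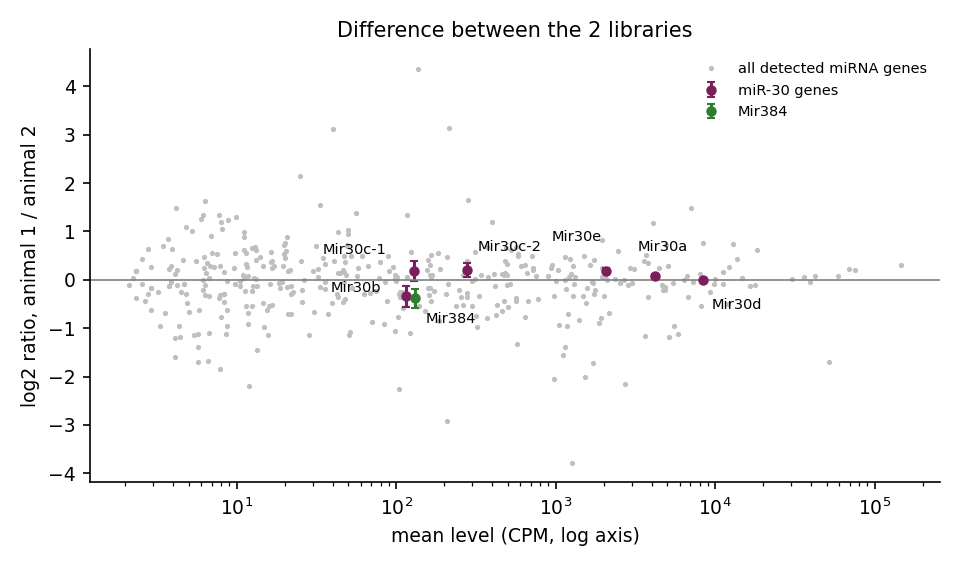
Log2 ratio of animal 1 over animal 2 against mean level in CPM on a log axis, for all 415 detected miRNA genes (grey), the 6 detected miR-30 genes and Mir384, with exact 95% counting intervals as bars. The miR-30 genes lie between -0.34 and 0.20, and Mir30b and Mir384 lie below 0.

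Mir384, the gene outside the family name whose 5p miRNA has the miR-30 seed, had 503 counts in animal 1 and 339 in animal 2, or 114 and 149 CPM. It lies on chromosome X at 105344282 to 105344369, minus strand. Its level overlapped those of Mir30c-1 and Mir30b. The log2 ratio of Mir384 was -0.38 (-0.59 to -0.18), higher in animal 2 like that of Mir30b. Adding it raised the share of counts at genes named miR-30 or known here to have the seed from 1.540% to 1.551% in animal 1 and from 1.488% to 1.503% in animal 2.

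Mir30e showed how strongly its count depends on the strand. The tables give 3 counts per gene, without strand, on the strand of the read and on the opposite strand. Mir30e had 9762 and 4412 counts on the read strand and 0 in both animals without strand. Mir30f, its exact opposite, had 0 on the read strand and without strand, and 9762 and 4412 in the opposite-strand column, the very counts of Mir30e. The mature miR-30f printed above is complementary to the Mir30e hairpin, and 19 of its 22 bases face miR-30e-3p. Reads of Mir30e made up 3.48% and 2.94% of the number entered as ambiguous in the unstranded column (280135 and 149823). Of the 6 detected genes, 1 had 0 unstranded counts in both animals, against 6.27% of detected genes. Opposite-strand counts above 3 in both animals were found at 1 of the 7 genes, against 1.54% of all genes. The other 5 detected genes had equal unstranded and read-strand counts and 0 on the opposite strand.

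**Figure D5:**
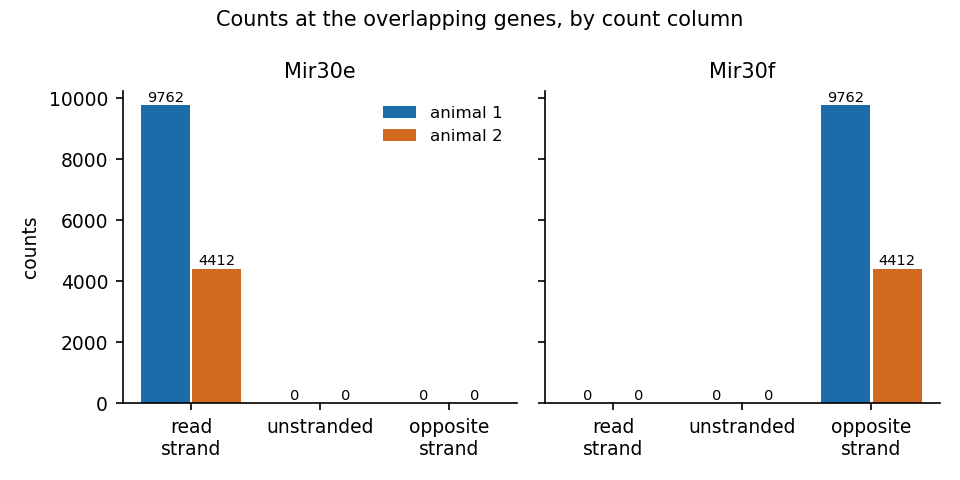
Counts at Mir30e and Mir30f in the read-strand, unstranded and opposite-strand columns, with 1 bar per animal. The counts of Mir30e on the read strand, 9762 and 4412, appear again at Mir30f as opposite-strand counts, and neither gene has an unstranded count.

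Reads that mapped to several places are entered apart, and they outnumbered those counted at genes, with shares of mapped reads of 48.9% (animal 1) and 48.2% (animal 2). They came to 74.5 and 76.2 times the counts of the miR-30 family. The sources used here do not say how such reads were treated at genes, so the levels of Mir30c-1 and Mir30c-2, with their common 5p arm, are uncertain, and what part this had in their low counts was not tested. The sequences of Mir30a and Mir30e, printed above, differ on both arms, but by only 1 base on each. How reads with a mismatch were treated is not given either, and Mir30b and Mir30d had no sequence to compare.

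The miR-29 and miR-181 families, which also lie in clusters with repeated miRNAs, were set beside it. The miR-29 genes, known to repress collagens, held 0.886% and 1.07% of counts, and the miR-181 genes, known for their role in lymphocytes, held 0.481% and 0.5004%. In miR-29, Mir29a alone had 94.2% of the family's counts on average, against 55.3% for Mir30d in miR-30 and 34.4% for Mir181d in miR-181. Among genes with an entry in the RefSeq table, those with a mature arm repeated in another gene held 2.69% ± 0.195 of miR-30 counts (SD, n = 2), 1.15% ± 0.215 of miR-29 counts and 38.6% ± 1.73 of miR-181 counts. Mean levels of the 6 such miR-29 and miR-181 genes ran from 16.7 CPM at Mir181a-2 to 1561 CPM at Mir181b-2, and Mir181b-1, with the same 5p arm as Mir181b-2, had 22.0 CPM. All 4 miR-29 genes were called higher in animal 2, as were 29.6% of detected genes. Mir29b-2 was called only narrowly (-0.59 to -0.0008). The miR-181 genes lay on both sides like the miR-30 genes, with 1 called higher in animal 1 and 2 in animal 2. These calls are not read as a result about the families. These differences between families were not tested.

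By level in both libraries, the genes outside the family nearest to each miR-30 gene, by Euclidean distance of log2(CPM + 1), were Mir92b for Mir30d (distance 0.113), Mir676 for Mir30a (0.0775) and Mir369 for Mir30e (0.0985). For the lower genes they were Mir16-1 for Mir30c-2 (0.132), Mir412 for Mir30c-1 (0.220) and Mir210, which hypoxia induces, for Mir30b (0.110). With 2 libraries this likeness says only that the levels are close.

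As a check of the tissue label, all 7 neuron miRNA genes listed were detected, at a summed 5.73% and 10.4% of counts. Mir132, which neuronal activity induces, made up much of this with 24389 and 79576 CPM. Without Mir132, singled out after its values were seen, the other 6 summed to 3.29% and 2.48%, and 4 of them were higher in animal 1 and 2 in animal 2. The list was chosen with earlier results of these data known, so its detection is no independent test. It leaves out the neural miR-124 and miR-9 genes. Mean levels of Mir124a-1, Mir124a-2 and Mir124a-3 were 1.68, 1.56 and 0.453 CPM. Those of Mir9-1, Mir9-2 and Mir9-3 were 9.87, 2.01 and 43.5 CPM, and only Mir9-1 and Mir9-3 of these genes were detected. Genes listed for liver and striated muscle came to at most 0.00609% and 0.00240%. Unmapped reads were 23.4% in animal 1 and 47.1% in animal 2. Other lists also differed between the animals. The summed level of the 3 erythroid genes was 459 and 91.2 CPM. Of these, Mir451a had 385 and 43.9 CPM, while Mir486 had 33.5 and 38.2 CPM and was inside counting error. The 2 oligodendrocyte genes summed to 1634 and 3455 CPM, and the endothelial Mir126a had 6662 and 9727 CPM. The 3 leukocyte genes summed to 1353 and 1712 CPM, mostly Mir150 (1319 and 1668 CPM). The 2 choroid plexus genes summed to 483 and 658 CPM and the 3 epithelial genes to 150 and 46.5 CPM, with no listed gene at 0 in both. Their part in the differences between animals was not tested.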

How the data were processed

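Small RNA libraries of 2 animals were analysed, 1 per animal. The authors deposited whole-number counts per miRNA gene, with no normalization, on mm10 per the labels and GENCODE M21 per the deposited metadata. Aligner and read filters were not given in the sources used here. The columns carry no header, and the strand column with the larger sum in both libraries (94.0% and 93.8% of strand-assigned counts) was used. The 4 summary entries naming no gene were left out of totals.

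CPM was computed over all gene counts. Intervals are exact Clopper-Pearson intervals at 95%, and that of a difference between animals of a ratio is the conditional interval of the odds ratio (Python 3.11.15, scipy 1.17.1). With 1 group no test was run. The code for the intervals and counting-error calls was run first on simulated counts with known changes. Alternatives were TMM factors (edgeR 4.0.16), DESeq2 1.42.0 size factors, other totals, the unstranded column, thinning, other filters, pseudocounts of 1 and 5, and leaving out a library or Mir30c-1 and Mir30c-2.

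Genes named are the 7 members, genes with their seed, overlapping or neighbouring genes and hosts, 2 compared families, the nearest gene in level to each member, and marker genes. The miR-124 and miR-9 genes are named beside the neuron list. The members and lists were chosen with earlier results of these data known. Sequences are from RefSeq, and the 5 hairpins there (4 members and Mir384) have the GENCODE positions.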

Additional observations from a re-analysis of the deposited data

Results flagged for a closer look

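The opposite-strand column, which enters no level, held counts at Mir30f well above the 3 that a count of 0 allows: 9762 in animal 1 and 4412 in animal 2. They equal the read-strand counts of Mir30e, the gene with the same start and end on the other strand, in each animal.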

How the results depend on the processing

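The family's share of counts, 1.51%, became 1.77% without the most abundant gene in the total, 0.644% of mapped reads, 1.40% in the unstranded column and 1.47% without Mir30c-1 and Mir30c-2; leaving out a library gave 1.49 to 1.54%. For miR-29 and miR-181 these were 1.14% and 0.575% without the most abundant gene, 0.416% and 0.209% of mapped reads, and, for miR-181, 0.524% unstranded. Unstranded counts lose Mir30e by construction, so 5 of 7 members stayed detected, the chromosome 4 cluster fell to 0.990% of the family, and those of chromosomes 15 and 1 rose to 64.9% and 34.1%. Without Mir30c-1 and Mir30c-2 the chromosome 1 cluster held 28.3%. Thinning moved the log2 ratio of Mir30e over Mir30c-1 from 4.00 to 3.99. Members outside counting error numbered 3 to 6 against 4, with 5 by TMM, 3 after thinning and 6 without the most abundant gene in the total. Of all detected genes, 57.6% were outside by TMM, 53.8% after thinning and 55% without the most abundant gene. These numbers of members are not read as a result about the family. The log2 ratios of Mir30a, Mir30b, Mir30c-1, Mir30c-2 and Mir30e kept their sign in every alternative that gave a ratio. That of Mir30d ran from -0.006 to 0.05, and Mir30e had no ratio in the unstranded column, where its level was 0. Only 2 libraries bound the spread, and low counts (276 to 608) limit Mir30b, Mir30c-1 and Mir384. No paired analysis was possible because there is 1 group.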

Other observations

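Neighbours within the miR-29 and miR-181 clusters were also unequal. Mir29a exceeded Mir29b-1 265-fold in animal 1 and 144-fold in animal 2, and Mir29c exceeded Mir29b-2 6.31-fold and 8.09-fold. Mir181a-1 exceeded Mir181b-1 17.6-fold and 11.0-fold, whereas on chromosome 2 the b copy led, with Mir181b-2 at 77.2 and 114 times Mir181a-2. Mir181d and Mir181c, 85 bases apart, were the closest to each other, at 1.23-fold and 1.34-fold. The log2 ratio of neighbours differed between animals beyond counting error in 4 of these 5 clusters and in 1 of the 3 miR-30 clusters. Such calls depend on the counts as well as on the size of the difference. Mir181d over Mir181c was called at -0.12 (-0.21 to -0.035), but Mir30a over Mir30c-2 was not at -0.12 (-0.27 to 0.02). Mir181b-2 over Mir181a-2 was not called at -0.57 (-1.20 to 0.03). The numbers of calls are therefore not read as a result about the families. The difference between the families was not tested.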
